A study of Mus musculus with 4 samples.

Results

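The 9 transcription factors described here steer marrow stromal cells towards fat or bone, and they were followed in single-cell libraries of mouse tibial bone marrow. They are Pparg, Cebpa, Cebpb and Zfp467 on the fat side, Ebf3 and Foxc1, which hold the haematopoietic niche programme, and Runx2, Sp7 and Dlx5 on the bone side. The members were taken by gene symbol from the deposited feature list, and all 9 of the 9 symbols were found among 31053 features. The rule for choosing them named known regulators and used no values, although earlier results of these data were known at the time.

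The study asked what removal of the growth factor gene Vegfc does to the marrow vascular niche before and after irradiation. It holds 4 libraries, 1 per group, so no group has a second sample and no difference below has a replicate check. All mice were of the C57Bl/6JCrl strain and carried floxed Vegfc alleles (Vegfc flox/flox). The control groups carried these alleles alone, whereas the deleted groups also carried Rosa26-CreERT2, a tamoxifen-inducible Cre driven from a ubiquitous locus, so that deletion was not limited to one cell type. Per the labels, both genotypes received 5 doses of tamoxifen into the stomach on consecutive days at 7 to 8 weeks of age, although another sentence of the labels names tamoxifen for samples 1 to 3 only. The irradiated groups received 4 Gy to the whole body 2 weeks later, and cells of all groups were taken 7 days after that. Each non-irradiated library pooled 3 mice and each irradiated library pooled 2 mice, whereas the labels count 3 irradiated mice per genotype. Marrow was flushed from tibias and digested with enzymes, and live cells negative for DAPI, lineage markers, CD45 and Ter119 were sorted. These cells went through 10x 3′ chemistry, which counts tags near the 3′ end of polyadenylated RNA by unique molecular identifiers (UMIs). Where 4 values follow each other, the first pair is non-irradiated and the second pair irradiated, with the control before the Vegfc-deleted library in each pair.

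LepR+ stromal cells are perivascular mesenchymal cells of the marrow that make Cxcl12 and Kit ligand for blood stem cells and that can give rise to both adipocytes and osteoblasts. In fat-cell formation the C/EBP factors Cebpb and Cebpd are known to act early and to switch on Pparg and Cebpa, which then sustain each other and the genes of lipid storage. In bone formation Runx2 is required first, Dlx5 helps to raise Runx2 and Sp7, and Sp7 (osterix) carries precursors on to mature osteoblasts. Ebf3 and Foxc1 are known to keep LepR+ cells in the niche state, and Zfp467 is a zinc finger factor that favours fat over bone.

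Sequences around the transcription starts are shown first for Pparg, Cebpb, Ebf3, Foxc1 and Runx2, because they show which of the factors' own motifs lie next to these starts. They come from the RefSeq promoter table for GRCm38.p6, which covers 250 bases before and 50 bases after each start. It held windows for 7 of the 9 members and none for Sp7 or Dlx5. Motifs were searched on both strands by their letters alone, and overlapping matches were counted separately. Capitals mark matches of TTNCNNAA, a loose form of the C/EBP motif, in the Pparg window, matches of the SP and KLF core GGGCGG in the windows of Cebpb, Ebf3 and Foxc1, and matches of the RUNX core TGTGGT in the Runx2 window.
Pparg, the third of its starts, chr6:115421816-115422115, plus strand: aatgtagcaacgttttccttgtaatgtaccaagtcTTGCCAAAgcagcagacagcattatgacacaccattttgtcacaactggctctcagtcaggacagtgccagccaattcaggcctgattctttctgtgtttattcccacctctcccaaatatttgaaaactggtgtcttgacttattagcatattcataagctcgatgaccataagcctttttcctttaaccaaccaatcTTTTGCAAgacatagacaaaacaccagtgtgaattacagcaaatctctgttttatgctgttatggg
Cebpb, chr2:167688665-167688964, plus strand: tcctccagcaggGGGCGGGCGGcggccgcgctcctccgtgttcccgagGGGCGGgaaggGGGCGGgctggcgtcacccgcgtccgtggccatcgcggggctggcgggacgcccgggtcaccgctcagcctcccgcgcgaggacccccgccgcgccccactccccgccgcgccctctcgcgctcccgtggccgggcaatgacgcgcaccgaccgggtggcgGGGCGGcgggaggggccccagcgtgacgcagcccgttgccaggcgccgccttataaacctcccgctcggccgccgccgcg
Ebf3, chr7:137314396-137314695, minus strand: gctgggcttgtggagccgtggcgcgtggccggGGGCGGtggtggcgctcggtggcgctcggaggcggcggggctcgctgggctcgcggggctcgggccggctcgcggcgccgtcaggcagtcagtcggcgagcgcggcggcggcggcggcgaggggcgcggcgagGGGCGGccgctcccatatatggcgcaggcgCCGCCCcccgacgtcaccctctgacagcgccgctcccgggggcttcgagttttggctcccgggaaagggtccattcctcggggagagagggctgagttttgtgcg
Foxc1, chr13:31806396-31806695, plus strand: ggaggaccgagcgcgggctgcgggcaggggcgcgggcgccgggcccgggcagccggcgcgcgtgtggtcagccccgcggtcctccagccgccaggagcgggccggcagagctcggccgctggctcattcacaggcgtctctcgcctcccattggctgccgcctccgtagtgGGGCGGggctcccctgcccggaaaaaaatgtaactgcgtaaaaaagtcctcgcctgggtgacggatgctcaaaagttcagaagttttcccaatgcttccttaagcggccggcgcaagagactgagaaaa
Runx2, chr17:44814578-44814877, minus strand: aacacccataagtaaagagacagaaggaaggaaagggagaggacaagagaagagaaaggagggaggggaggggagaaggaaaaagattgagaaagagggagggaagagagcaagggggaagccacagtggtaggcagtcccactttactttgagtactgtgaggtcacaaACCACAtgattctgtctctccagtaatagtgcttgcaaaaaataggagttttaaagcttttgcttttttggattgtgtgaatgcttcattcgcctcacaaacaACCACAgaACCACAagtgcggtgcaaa

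The windows differed first in base composition. GC content was 40.3% in the Pparg window shown and 45.3% in that of Runx2, against 80.7% for Cebpb, 77.0% for Ebf3 and 67.3% for Foxc1, with a median of 52.7% over 32817 promoters. The other 2 Pparg starts, which are not printed, had 80.3% and 62.7%. The Pparg window shown held 2 matches of TTNCNNAA, a motif found in 40.7% of all promoters, whereas the other 2 Pparg starts held no match of it. The Cebpa window, which is not printed, held no match of any motif searched. Runx2 held 3 matches of TGTGGT, found in 16.8% of promoters, as well as 2 of TTNCNNAA and 1 of AGGTCA (16.3% of promoters). The GC-rich core GGGCGG, found in 35.6% of promoters, matched 5 times in Cebpb, 3 times in Ebf3, once in each of Foxc1 and Zfp467, and, at the 2 Pparg starts not printed, once and 2 times. Foxc1 further held 2 matches of TTNCNNAA and 1 of TGTGGT, and the other 2 Pparg starts held 1 match of AGGTCA each. A match is a description of letters and not a bound site, and because 3′ tags do not reach the start, these data do not tell which Pparg start was used.

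The genes lie on 6 chromosomes of GRCm38 by the GENCODE M21 annotation. Pparg is at chr6:115360951-115490399, Cebpa at chr7:35119293-35121928, Cebpb at chr2:167688915-167690418 and Foxc1 at chr13:31806633-31812476, all on the plus strand. On the minus strand are Zfp467 at chr6:48427697-48445825, Ebf3 at chr7:137193673-137314445, Runx2 at chr17:44495987-44814797, Sp7 at chr15:102356606-102367182 and Dlx5 at chr6:6877805-6882085. Pparg, Cebpa, Cebpb, Ebf3 and Runx2 overlap a gene annotated on the other strand (for Cebpb this is Tmem189, for Runx2 it is Supt3). Runx2 also overlaps n-R5s27 on its own strand. No source says whether the counting used strand, so part of the tags in these genes could come from the partner.

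After filters, 5058, 5211, 3837 and 4065 cells were kept, with medians of 7635.5, 7851.0, 9874.0 and 9808.0 UMIs. Vegfc itself, the targeted gene, stood at 167, 17.5, 175 and 24.2 CPM (UMIs of a gene scaled to a total of 1000000) in LepR+ stromal cells, which held 1864 of its 1915 UMIs in the non-irradiated control. Its level was thus lower in both libraries labelled as deleted, although the labels do not say which exon was removed. The LepR+ stromal class held 1209, 755, 440 and 148 cells (23.9%, 14.5%, 11.5% and 3.64%) and all 13 of its markers were detected in every library, with Lepr at 1766, 1825, 1601 and 1044 CPM. The osteolineage class held 22, 7, 148 and 79 cells and made Col1a1 at 52886, 25011, 145844 and 121840.0 CPM. These classes came from clusters built without the 9 members. The 2 irradiated libraries filled a different LepR+ cluster from the non-irradiated ones: cluster 2 held 1076, 628, 38 and 13 cells and cluster 12 held 4, 3, 376 and 126. A further LepR+ cluster of shallow cells, cluster 21, held 129, 124, 26 and 9. At most 21 barcodes (0.415%) were shared between libraries.

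The irradiated Vegfc-deleted library stood apart in its neutrophil transcripts. Summed neutrophil markers made up 137, 415, 152 and 2543 CPM of LepR+ stromal UMIs, and 13, 27, 2 and 45 of these cells (1.08%, 3.58%, 0.455% and 30.4%) held at least 10 UMIs of 6 neutrophil granule genes. Erythroid markers, at 9570.1, 10100.3, 2181 and 3257 CPM, were lower in the irradiated libraries. The levels of the members in LepR+ cells of the irradiated Vegfc-deleted library are therefore given with all 148 cells and with the 103 cells that remain without those, while shares of cells are given with all cells only. Erythroid cells, which should lack most members, served as background for free RNA: after thinning each cell to 3000 UMIs, at most 1.52% of them had a UMI of any member other than Cebpb, which was found in 3.69%, 4.37%, 5.01% and 5.83%.

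Within LepR+ stromal cells, Pparg and Cebpa were higher, and Cebpb and Dlx5 lower, in the irradiated control library than in the non-irradiated control. Pparg was 2.60 times and Cebpa 1.89 times as high, while Cebpb and Dlx5 were 2.69 and 2.17 times lower. Ebf3 and Foxc1 differed by 1.05- and 1.09-fold. The same comparison between the Vegfc-deleted libraries gave Pparg 3.18 times higher, Cebpb 6.04 times lower, and Dlx5 2.19 times lower. Levels are CPM of all UMIs of the class in a library, with exact 95% Poisson intervals, and ratios have exact conditional intervals. These intervals cover counting error only. Fewer transcribing cells and less RNA per cell cannot be told apart in such sums, and levels of different genes were not compared with each other.

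Pparg, the nuclear receptor that directs fat-cell formation, was at 63.0 CPM [58.4, 67.8] in the control and 58.6 [52.9, 64.7] in the Vegfc-deleted library without irradiation, and at 164 [152, 176] and 186 [164, 210.1] in these genotypes with it. Both irradiated libraries were above both non-irradiated ones, and the intervals overlapped within each pair but not between pairs. The log2 ratio with irradiation was 1.38 [1.23, 1.53] in the control and 1.67 [1.44, 1.9] in the Vegfc-deleted genotype. Without the 45 cells rich in granule UMIs, Pparg was at 134 CPM in the irradiated Vegfc-deleted library, which lies below the irradiated control.

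Cebpa, the partner that sustains Pparg and is also a myeloid factor, was at 285, 320.1, 538 and 434 CPM. In the 103 irradiated Vegfc-deleted cells that were not rich in granule UMIs it was at 437. It was higher in both irradiated libraries, by a log2 ratio of 0.92 [0.84, 0.99] in control and 0.44 [0.31, 0.57] in Vegfc-deleted cells. Only the first of these passes a 1.5-fold difference, the size used here to call a difference where at least 30 UMIs were seen in one of the libraries.

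Zfp467 was the sparsest member of the fat side, with 314, 185, 182 and 44 UMIs. Levels were 28.2, 27.9, 39.9 and 31.4 CPM, with 44.2 in the 103 cells, and irradiation ratios on the log2 scale were 0.5 [0.23, 0.77] and 0.17 [-0.34, 0.65]. Neither reached 1.5-fold, and the interval in the Vegfc-deleted genotype includes no difference.

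Cebpb, the early C/EBP factor, went the other way from Pparg and Cebpa. It was at 659 CPM [644, 674], 1163 [1138, 1189.6], 245 [231, 259.9] and 192 [170.2, 217]. The non-irradiated Vegfc-deleted library had the highest level and both irradiated libraries the lowest. Log2 ratios with irradiation were -1.43 [-1.52, -1.34] in control and -2.6 [-2.78, -2.42] in Vegfc-deleted cells. Removing the cells rich in granule UMIs left the irradiated Vegfc-deleted level at 192 CPM.

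The level of Cebpb moved with that of immediate early genes, a group that rises quickly when tissue is digested or cells are stressed. Summed over the 16 genes of that list, the level was 36760.3, 38194, 17120.1 and 7513 CPM. When the cells of each library with at least 3000 UMIs were ranked by the share of their UMIs from these genes and cut into 3 equal parts, Cebpb in the lowest, middle and highest part was at 418, 662 and 934 CPM in the non-irradiated control and at 687, 1193 and 1754 in the non-irradiated Vegfc-deleted library. In the irradiated control it was at 251, 235 and 251, and in the irradiated Vegfc-deleted library at 206, 171 and 203. So Cebpb was higher where the immediate early genes were higher among non-irradiated cells, and was flat among irradiated ones. In Cebpb the lowest part of the non-irradiated control was above every part of the irradiated libraries, but the parts were not matched in immediate early genes. Those genes summed to 22404 CPM in that lowest part. In the irradiated control they were at 7932, 16926 and 27377 CPM, and in the irradiated Vegfc-deleted library at 3292, 7915 and 14251. The part of tissue handling in these values was not tested.

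Ebf3 and Foxc1, the niche factors, were the steadiest members between the control libraries. Ebf3 was at 1192, 1049, 1257 and 710.1 CPM, and its log2 ratio with irradiation was 0.08 [0.03, 0.12] in control cells but -0.56 [-0.66, -0.47] in Vegfc-deleted cells. The irradiated Vegfc-deleted library was thus the lowest of the 4. Foxc1 was at 622, 634, 681 and 559 CPM, and its ratios were 0.13 [0.07, 0.19] and -0.18 [-0.29, -0.07]. Without the cells rich in granule UMIs the irradiated Vegfc-deleted library had Ebf3 at 880.5 and Foxc1 at 628 CPM, so the Foxc1 value then lay among those of the other libraries and Ebf3 remained the lowest. The log2 ratio of Ebf3 with irradiation in Vegfc-deleted cells was then -0.24, while with all cells and library sizes rescaled by the trimmed mean of M values (TMM) it was -0.76. In the 45 removed cells Ebf3 was at 529, Foxc1 at 486 and Pparg at 241 CPM.

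Runx2, the factor without which osteoblasts do not form, was at 405, 456, 298 and 211 CPM. Both irradiated libraries were below both non-irradiated ones. Its log2 ratio was -0.44 [-0.53, -0.35] in control and -1.11 [-1.29, -0.94] in Vegfc-deleted cells, of which the second is past 1.5-fold. Removing cells with granule UMIs gave 253 CPM in place of 211.

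Dlx5, a homeobox factor of early osteoblasts, was at 89.4 CPM [84.0, 95.1], 104 [96.7, 112], 41.2 [35.5, 47.6] and 47.8 [37.0, 60.7]. The intervals of the irradiated libraries overlap each other and lie below those of the non-irradiated libraries. Log2 ratios were -1.12 [-1.35, -0.89] and -1.13 [-1.51, -0.76]. Without the granule-rich cells the irradiated Vegfc-deleted level was 51.1 CPM.

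Sp7 did not move with Runx2 and Dlx5. It was at 34.1, 28.0, 51.5 and 47.1 CPM, from 380, 186, 235 and 66 UMIs, and at 65.0 CPM in the last library without its granule-rich cells. Its log2 ratios with irradiation were 0.6 [0.36, 0.83] and 0.75 [0.32, 1.16], which are just past 1.5-fold. With TMM scaling the ratios were 0.38 and 0.55, below that size. In control cells Sp7 was also below it after thinning (0.33), without doublet removal (0.57) and with the members kept among the clustering genes (0.58).

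Among the 9 members, 3 were thus at least 1.5-fold higher (Pparg, Cebpa and Sp7) and 2 lower (Cebpb and Dlx5) in the irradiated than in the non-irradiated control. Over all 11335 genes with enough UMIs in that comparison, 17.4% were higher and 10.7% lower. In the Vegfc-deleted genotype 2 members were higher (Pparg and Sp7) and 3 lower (Cebpb, Runx2 and Dlx5), against 17.9% and 13.0% of 10331 genes. The scaling matters here, because the median log2 ratio over all genes was 0.16 in control and 0.13 in Vegfc-deleted cells. TMM moved ratios by -0.22 and -0.2, after which 9.15% of genes were higher and 16.9% lower in control cells, and 10.3% and 18.9% in Vegfc-deleted cells. Pparg (both genotypes) and Cebpa (control) stayed past 1.5-fold higher under TMM, Cebpb and Dlx5 stayed lower, and Runx2 in control cells (-0.66) and Ebf3 in Vegfc-deleted cells (-0.76) then passed as lower. Ebf3 in Vegfc-deleted cells also passed without doublet removal (-0.59) and with the members kept among the clustering genes (-0.62).

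**Figure D1:**
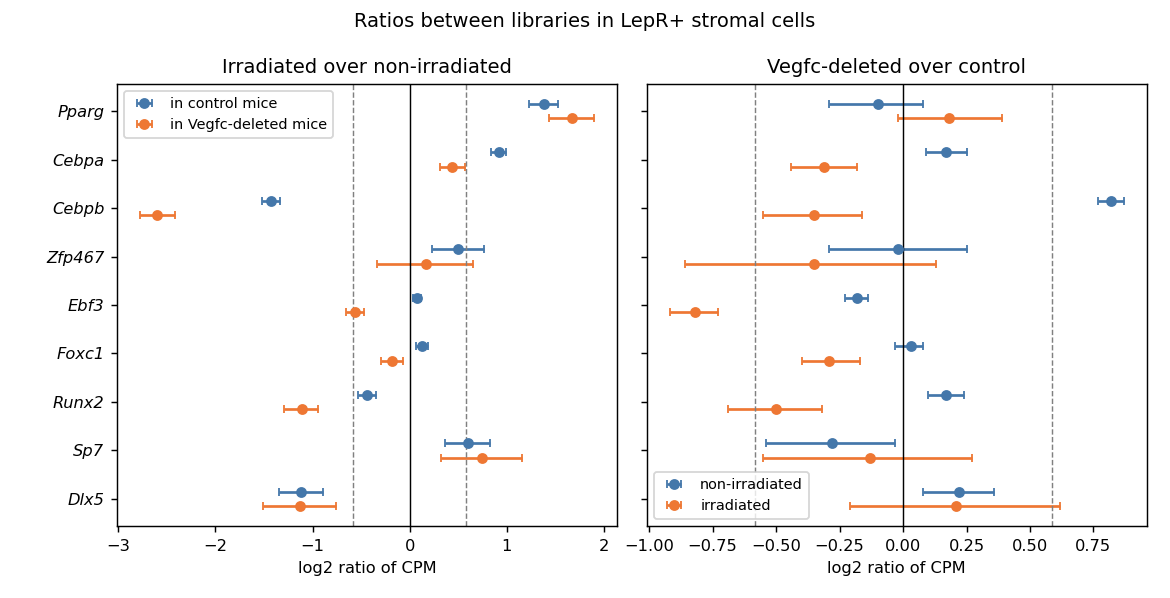
Log2 ratios between libraries in LepR+ stromal cells for each factor (x axis, log2 ratio of CPM), with exact 95% intervals that cover counting error. Pparg lies right of 0 in both irradiation comparisons (1.38 and 1.67) and Cebpb left of it (-1.43 and -2.6), while between genotypes Cebpb (0.82, non-irradiated) and Ebf3 (-0.82, irradiated) lie farthest from 0.

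Between genotypes the members differed less. In the non-irradiated libraries 1 of 9 was past 1.5-fold higher in Vegfc-deleted cells, namely Cebpb with a log2 ratio of 0.82 [0.77, 0.87], and 0 were lower, against 2.21% and 4.66% of 11270 genes. The other 8 lay between -0.28 (Sp7) and 0.22 (Dlx5). In the irradiated libraries 0 of 9 were higher and 1 was lower, Ebf3 at -0.82 [-0.92, -0.73], against 8.17% and 12.0% of 9956 genes. Without the cells rich in granule UMIs Ebf3 differed by -0.51 and no longer reached that size. Pparg was at 0.18 [-0.02, 0.39] with all cells and at -0.3 without the granule-rich ones, so its direction turned.

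The irradiation ratio itself was compared between genotypes as a difference of log2 ratios, with an approximate 95% interval from counting error. Cebpb gave the largest of the 9 differences, -1.17 [-1.37, -0.97] for Vegfc-deleted minus control. Runx2 (-0.67 [-0.86, -0.48]), Ebf3 (-0.64 [-0.75, -0.53]), Cebpa (-0.48 [-0.63, -0.33]) and Foxc1 (-0.31 [-0.44, -0.19]) were also more negative in the Vegfc-deleted genotype. Pparg was at 0.29 [0.02, 0.56]. For Zfp467, Sp7 and Dlx5 the interval included 0. Without the granule-rich cells, an alternative chosen after seeing the data, the difference of Pparg turned to -0.22 [-0.57, 0.14] and that of Sp7 was 0.62 [0.1, 1.14]. The differences of Ebf3 (-0.32 [-0.44, -0.19]), Foxc1 (-0.16 [-0.31, -0.01]) and Runx2 (-0.41 [-0.64, -0.17]) were then smaller. Those of Cebpb (-1.19 [-1.45, -0.93]) and Cebpa (-0.48 [-0.67, -0.29]) were about as large as with all cells. With 1 library per group these differences compare 4 libraries and could not be tested as an interaction.

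Shares of cells went the same way as the sums. After each LepR+ cell was thinned to 3000 UMIs (1113, 652, 410 and 134 cells were deep enough), Pparg was found in 16.0%, 16.7%, 29.8% and 28.4% of cells and Cebpa in 54.4%, 55.2%, 73.4% and 67.2%. Cebpb was found in 74.2%, 86.3%, 46.3% and 38.8%, Runx2 in 67.1%, 70.7%, 52.2% and, for the last library, 67 of 134 cells, and Dlx5 in 24.2%, 21.8%, 13.7% and 15.7%. The fat-side shares were thus higher and those of Cebpb, Runx2 and Dlx5 lower in the irradiated libraries. Before thinning, Pparg was found in 38.5%, 33.6%, 56.4% and 53.4% of cells. Ebf3 was found in 93.5%, 91.1%, 92.7% and 81.3% and Foxc1 in 78.3%, 80.4%, 82.0% and 79.9% of thinned cells. Median depth was 9249.0, 8727.0, 9684.5 and 7687.0 UMIs in this class and 6949.0, 8031.0, 8663.0 and 7023.0 in erythroid cells.

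Factors of the fat and bone sides were found together in the same LepR+ cells. At 3000 UMIs, 64.4%, 65.8%, 82.7% and 79.1% of cells had a UMI of Pparg, Cebpa or Zfp467, and 76.5%, 77.6%, 62.4% and 60.4% had one of Runx2, Sp7 or Dlx5. Both sides were found in 49.2%, 50.9%, 51.0% and 44.8% of cells, where independent detection would give 49.3%, 51.1%, 51.6% and 47.8%. Single pairs were read for all members in each library and were not tested. Pparg and Runx2 met in 11 cells of the irradiated Vegfc-deleted library where independent detection would give 19.0, which is a single pair in a single library. Sp7 and Dlx5 met in 30, 17, 9 and 4 cells where independent detection would give 24.4, 10.7, 7.38 and 3.29.

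The irradiated control library held cells of LepR+ clusters 2 and 12 and of the shallow cluster 21, and the members differed between them. In the 38 cells of cluster 2, the cluster that held most non-irradiated LepR+ cells, Pparg was at 50.1 CPM [30.2, 78.3] and Cebpa at 266 [217, 324]. In the 376 cells of cluster 12 they were at 176 [163, 189] and 566 [543, 589]. Thus Pparg and Cebpa in irradiated cells of cluster 2 were near the non-irradiated levels. Runx2 was at 422 in cluster 2 and 285 in cluster 12, Dlx5 at 73.8 and 38.4, and Sp7 at 97.6 and 47.9 CPM. Cebpb was alike in these 2 clusters, at 237 and 245 CPM, and in both it was below the non-irradiated libraries. The 26 irradiated control cells of cluster 21 had Pparg at 75.9 CPM [24.6, 177] from 5 UMIs and Cebpa at 349. Their Ebf3 was at 2049, against 928 in cluster 2 and 1275 in cluster 12. In the irradiated Vegfc-deleted library the 13 cells of cluster 2 had Pparg at 55.6, Runx2 at 454 and Sp7 at 120.5 CPM. The clusters were built from other genes of the same cells, so this is a description of where the members were read.

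A few irradiated LepR+ cells carried transcripts of fat droplets and late fat cells, counted over 11 genes such as Plin1 (which coats the droplet), Cidec (which enlarges it), Lipe (a lipase) and Lep (leptin). This list and its limit of 10 UMIs were chosen after seeing the data. No non-irradiated LepR+ cell reached 10 UMIs, whereas 15 cells (3.41%) of the irradiated control and 10 (6.76%) of the irradiated Vegfc-deleted library did. They held 37.8% and 84.8% of all such UMIs in the class, and 1 cell of the second library held 530. A further 30 and 6 cells had 5 to 9 UMIs, so the limit cuts a range in the irradiated control. Cells past it were deeper, with medians of 17111.0 against 9541.0 UMIs and of 19809.0 against 7436.5. Of the 10 cells, 6 also held at least 10 granule UMIs.

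Pparg and Cebpa were higher in those cells, and the niche and bone factors lower. In the irradiated control, Pparg was at 284 CPM in cells with at least 10 of these UMIs and at 156 in the rest, a log2 difference of 0.86 [0.5, 1.21], and Cebpa was at 798 against 521. Ebf3 was at 602 against 1298, Foxc1 at 277 against 707, Runx2 at 118 against 309.6, Sp7 at 14.8 against 53.8 and Dlx5 at 7.39 against 43.4 CPM. The 5 niche and bone factors were lower there by log2 differences of -1.11 (Ebf3) to -2.55 (Dlx5). In the 15 cells past the limit, Sp7, Dlx5 and Zfp467 rested on 4, 2 and 5 UMIs. The interval of the Zfp467 log2 difference, [-2.8, 0.09], includes no difference. With Zfp467, 6 of the 9 members were thus at least 1.5-fold lower and 2 higher, against 27.0% and 15.5% of 9789 genes, whose median log2 difference was -0.08. In the irradiated Vegfc-deleted library 5 members were lower (Ebf3, Foxc1, Runx2, Sp7 and Dlx5) and 3 higher (Pparg, Cebpa and Cebpb), against 36.2% and 16.7% of 5958 genes (median -0.25), with Pparg at 385 against 144 and Ebf3 at 178 against 824. In that library Foxc1 was at 129.5 against 651, Runx2 at 24.3 against 251 and Sp7 at 8.10 against 55.4 CPM. The Runx2 and Sp7 values of its 10 cells came from 6 and 2 UMIs. Over the 10 cells, 6 of them rich in granule UMIs, Dlx5 was at 32.4 against 51.1, with an interval of the log2 difference that includes 0 [-1.93, 0.41]. In the other 4 cells Pparg was at 542, Cebpa at 849, Cebpb at 289, Ebf3 at 343, Foxc1 at 108 and Dlx5 at 36.1. Zfp467, although it favours fat, was at 18.5 against 41.3 CPM in the irradiated control and at 28.3 against 32.0 in the Vegfc-deleted library, where the 4 cells had 108 [39.8, 236] from 6 UMIs. Cebpb was at 262 against 244 and at 332 against 163.

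The Pparg difference with irradiation was also seen outside these cells. In LepR+ cells with 0 such UMIs Pparg was at 107 CPM in the irradiated control and 111 in the irradiated Vegfc-deleted library, still above the 63.0 and 58.6 of the non-irradiated libraries. Without both the granule and the fat-droplet cells, 99 cells of the irradiated Vegfc-deleted library had Pparg at 100.3, Ebf3 at 925, Foxc1 at 671 and Runx2 at 272 CPM.

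**Figure D2:**
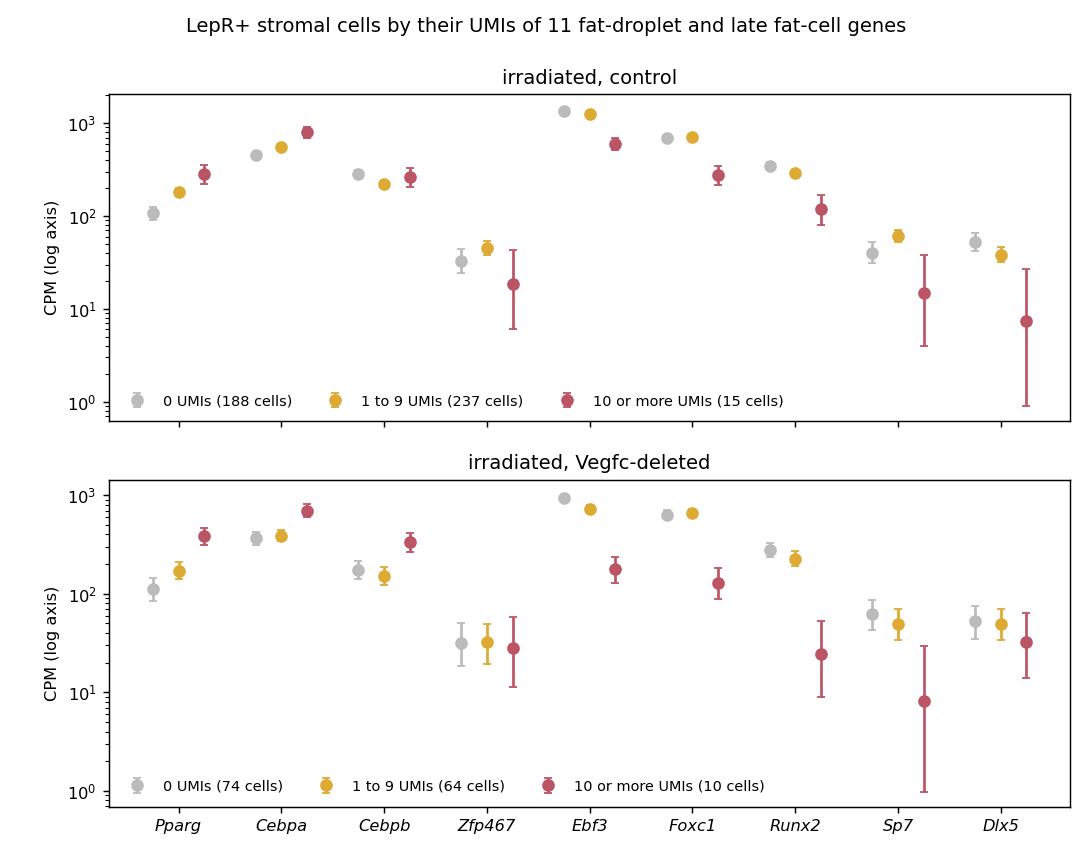
Level of each factor (CPM, log axis, 95% Poisson intervals) in LepR+ stromal cells of the irradiated libraries, split by the UMIs of 11 fat-droplet and late fat-cell genes per cell. From 0 UMIs to at least 10, Pparg goes from 107 to 284 in the irradiated control, and Ebf3 from 1355 to 602.

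Other genes of the same pathways were read from lists of textbook members. Of 24 fat-cell products, 17 had enough UMIs in the control comparison, and 15 were at least 1.5-fold higher and 0 lower in the irradiated library, with a median log2 ratio of 1.53. In the Vegfc-deleted genotype 22 of 23 were higher and 0 lower, with a median of 3.74. All genes had medians of 0.16 and 0.13, and 17.4% and 17.9% of them were higher. Without the cells past 10 fat-droplet UMIs, 10 of these products were past that size as higher in the Vegfc-deleted genotype, and without the granule-rich cells 13 were. Fabp4, a fatty-acid carrier made by fat cells and also by marrow endothelium, was at 63.9, 67.3, 2386 and 7456 CPM, and Cd36, a fatty-acid uptake protein shared with endothelium, at 14.7, 7.68, 125 and 286. Plin1, which is more specific to fat cells, was at 0, 0.151, 42.8 and 103 CPM.

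Of 21 adipogenic regulators other than the members, 5 were higher and 2 lower in control cells (median 0.28), against 17.4% and 10.7% of all genes, so the shares were near those of all genes. Of 17 in Vegfc-deleted cells 3 were higher and 9 lower (median -0.63), against 17.9% and 13.0%. Cebpd, the other early C/EBP factor, was at 1196, 1537, 433 and 351 CPM, so it too was lowest in the irradiated libraries. Prdm16, known for brown fat, was at 7.62, 7.53, 22.1 and 18.5, and Nr1h3, the liver X receptor alpha, at 18.8, 18.4, 37.1 and 41.3. Klf2, which restrains Pparg in fat precursors, was at 1219, 1092, 437 and 129.8. Of 12 repressors of fat-cell formation, 2 were higher and 3 lower in control cells (median -0.27), and 1 and 5 in Vegfc-deleted cells (median -0.31). The shares over all genes were again 17.4% higher and 10.7% lower in control cells, and 17.9% and 13.0% in Vegfc-deleted cells.

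Of 10 C/EBP partners and related bZIP factors 6 were lower and 4 within 1.5-fold in control cells, with a median of -0.7, against 10.7% of all genes lower. Of 9 in Vegfc-deleted cells 6 were lower and 3 within that size, with a median of -1.11, against 13.0%. Nfil3 was at 70.0, 125, 35.1 and 37.8 CPM, so like Cebpb it was highest in the non-irradiated Vegfc-deleted library and lower in both irradiated ones. Immediate early genes were lower for 14 of 16 in control and 15 of 16 in Vegfc-deleted cells, with medians of -1.39 and -2.32.

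Of 17 osteogenic regulators other than the members, 3 were higher, a share near the 17.4% of all genes, and 4 lower, against 10.7%, in control cells (median -0.26). Of 16 in Vegfc-deleted cells 1 was higher and 7 lower (median -0.57), against 17.9% and 13.0%. Zbtb16 was at 40.4, 49.3, 90.3 and 80.6 CPM, and Fosl2, an AP-1 factor of osteoblasts, at 143, 192, 56.8 and 35.6. Of 14 repressors of osteoblast formation, 2 were higher and 2 lower in control cells (median -0.05), against the same 17.4% and 10.7% of all genes. In Vegfc-deleted cells 1 was higher and 4 lower (median -0.16), against 17.9% and 13.0%. Id1, an inhibitor of helix-loop-helix factors, was at 103, 55.1, 329 and 209.6 CPM, and Hes1, a Notch target, at 409, 299.9, 127 and 84.8.

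Osteoblast products gave 3 higher and 6 lower of 18 in control cells (median -0.09), against 17.4% and 10.7% of all genes. In Vegfc-deleted cells they gave 3 and 6 of 17 (median -0.22), against 17.9% and 13.0%. Ibsp, bone sialoprotein and a Runx2 target, was at 6437, 7096, 733 and 989 CPM, and Mgp, an inhibitor of mineralisation, at 2355, 1397, 297 and 272. Both were lower in the irradiated libraries by log2 ratios between -3.13 and -2.36. Sp7 was the one member of the bone side that was higher, and Ibsp did not move with it.

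Niche genes known to need Ebf3 or Foxc1 gave 3 higher and 0 lower of 14 in control cells (median 0.38), against 17.4% and 10.7% of all genes. In Vegfc-deleted cells they gave 3 and 3 (median -0.03), against 17.9% and 13.0%. Angpt1, the Tie2 ligand, was at 227, 236, 656 and 497 CPM, and Il7, the lymphocyte growth factor, at 113, 145, 259 and 229.6. Cxcl12 was at 24593, 22025, 21700.0 and 15963 and Kitl at 2128, 2096, 2585 and 1836 CPM. Lepr and Cxcl12, like Ebf3, were lowest in the irradiated Vegfc-deleted library. A list of abundant transcripts of blood cells, kept as a gauge of free RNA, gave 2 higher and 4 lower of 10 in control cells (median -0.34), and 6 and 4 in Vegfc-deleted cells (median 1.2).

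Osteolineage cells, the osteoblasts and early osteocytes of the sort, were compared with LepR+ cells inside each irradiated library. Sp7 was the 1 member of 9 at least 1.5-fold higher in osteolineage cells, at 204 against 51.5 CPM in the irradiated control (3.95-fold) and at 177 against 47.1 in the Vegfc-deleted library (3.76-fold). Over all genes 10.4% and 11.9% were higher. All 6 fat-side and niche factors were lower in both libraries, that is 6 of the 9 members, against 64.9% and 58.3% of all genes. With this scaling the count of lower members was thus near the share of all genes. TMM moved these ratios by 0.83 and 0.85 log2 units, after which 23.9% and 28.7% of genes were higher and 31.5% and 26.1% lower.

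Of the 9 members Ebf3 differed most between the classes in the irradiated control, at 13.3 against 1257 CPM (log2 ratio -6.56), and Pparg did in the Vegfc-deleted library, at 2.08 against 186 (-6.49). Ebf3 was at 8.65 against 710.1 in the second library (-6.36), and Pparg at -4.89 in the first. Cebpa was at -5.53 and -5.83, and Foxc1 at -3.76 and -4.41. Zfp467 was at -1.99 and -2.69, and Cebpb at -1.25 and -1.04. The Cebpb value lost its 1.5-fold size in both libraries under TMM (-0.42 and -0.19) and with equal weight per cell (-0.34 and -0.39), in the control after thinning (-0.4), and in the Vegfc-deleted library without granule-rich cells (-0.5). In that last setting, which leaves 11 osteolineage cells, Sp7 was at 1.75 and Ebf3 at -7.5. Runx2 was at 246 against 298 and 159 against 211 CPM, and Dlx5 at 37.9 against 41.2 and 54.7 against 47.8. Those differences were within 1.5-fold. Under TMM both turned to higher in osteolineage cells, Dlx5 at 0.7 and 1.04 and Runx2 at 0.55 and 0.44.

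**Figure D3:**
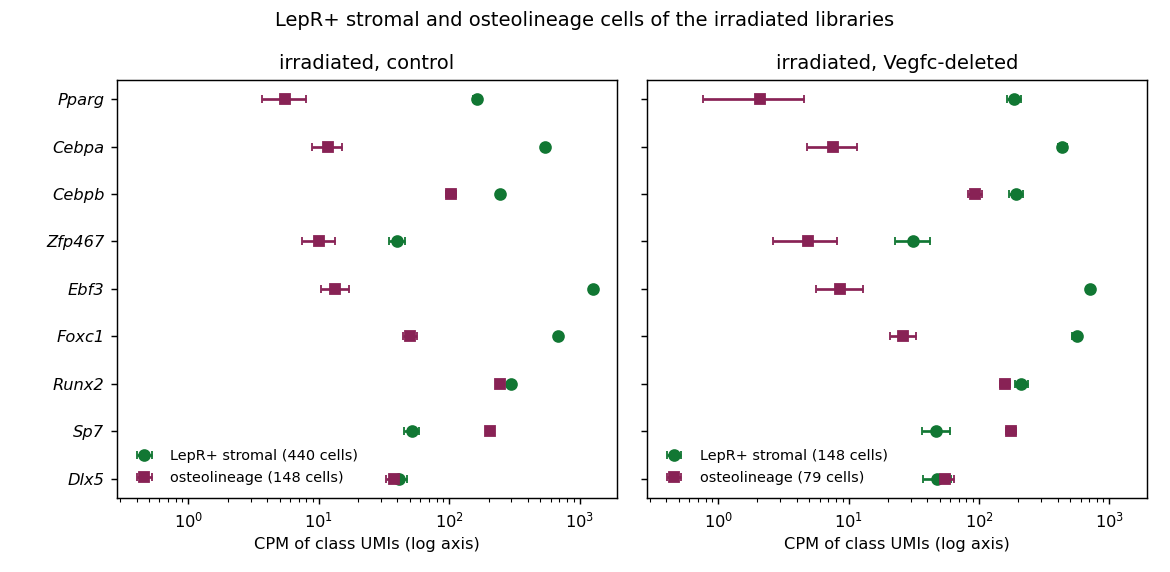
Level of each factor (CPM, log axis, 95% Poisson intervals) in LepR+ stromal cells and osteolineage cells of the irradiated control (left) and irradiated Vegfc-deleted library (right). Sp7 is the factor for which the osteolineage point lies clearly to the right (204 against 51.5, and 177 against 47.1), and in the other direction the widest gap is that of Ebf3 on the left (13.3 against 1257) and that of Pparg on the right (2.08 against 186).

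The same lists were read between the classes, although they share genes with the markers that named them. All 12 osteolineage markers are among the osteoblast products. The niche genes include the LepR+ markers Cxcl12, Kitl, Lepr, Il7, Vcam1, Pdgfra and Pdgfrb, and the fat-cell products include Adipoq and Lpl. The direction of those genes was thus largely set by the naming. Of 23 osteoblast products 20 were higher and 2 lower in osteolineage cells of the irradiated control, and of 22 in the Vegfc-deleted library 18 and 3. Niche genes were lower for 14 of 14 and 13 of 13. Fat-cell products were lower for 14 of 17 and 21 of 22. Osteogenic regulators other than the members were mixed, with 7 higher and 9 lower of 17, and 7 and 6 of 16. Over all genes 10.4% and 11.9% were higher and 64.9% and 58.3% lower in osteolineage cells. The share of osteogenic regulators that were lower was thus not above that of all genes.

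In the non-irradiated libraries the osteolineage class held few cells, 22 and 7, and 3 of the 7 had at least 10 granule UMIs. In the 22 cells of the control Sp7 was at 178 CPM (5.23-fold above LepR+ cells), Runx2 at 464 and Dlx5 at 146. Irradiated control osteolineage cells had Sp7 at 204, Runx2 at 246 and Dlx5 at 37.9 CPM. Runx2 and Dlx5 were thus lower there as well, and Sp7 was not, but 22 cells of 1 library are the whole of the comparison.

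Between the irradiated osteolineage cells of the genotypes, 5 of the 8 members with enough UMIs were at least 1.5-fold lower and 0 higher in the Vegfc-deleted library, against 10.8% and 8.16% of 8534 genes. Runx2 was at 159 against 246 CPM (log2 ratio -0.63 [-0.79, -0.47]) and Foxc1 at 26.3 against 50.2 (-0.93 [-1.32, -0.55]). Zfp467 at -1.05, Cebpa at -0.62 and Ebf3 at -0.62 were the others, from 14, 22 and 25 UMIs in the Vegfc-deleted library. In cluster 23, which held 78 of its 79 cells, their level intervals overlapped between genotypes. Cebpa was at 7.62 CPM [4.78, 11.5] against 11.7 [8.84, 15.2] there, and Ebf3 at 8.66 [5.61, 12.8] against 13.4 [10.3, 17.1]. Ebf3 was not past 1.5-fold with the stricter cell filter, at resolution 2 or after thinning. Sp7 was at -0.2 [-0.36, -0.05] and Dlx5 at 0.53 [0.21, 0.84]. Of the 79 Vegfc-deleted cells 68 (86.1%) had at least 10 granule UMIs, against 4 of 148, and summed neutrophil markers were at 32383 against 4567 CPM. Without those cells 11 remained, and Runx2 then differed by 0.07. The part of the neutrophil transcripts in the other values was not tested.

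Across the marrow the members split into those that were concentrated in stroma and those shared with other cells. LepR+ cells held 96.3%, 96.8%, 82.9% and 75.1% of the Ebf3 UMIs of a library and 92.2%, 91.0%, 67.9% and 62.7% of those of Foxc1. Endothelial cells came next for Foxc1 by share, with 3.18%, 6.37%, 18.9% and 21.7% of its UMIs, at 75.6, 77.4, 48.9 and 43.4 CPM. By level, osteolineage cells were close to them in the irradiated control, at 50.2 CPM. In the non-irradiated control the 22 osteolineage cells were above them, at 156 CPM. For Sp7, LepR+ cells held 81.2%, 91.2%, 18.5% and 11.1% and osteolineage cells 15.6%, 7.84%, 78.5% and 85.9%. The number of cells differed too, with 22, 7, 148 and 79 osteolineage cells and 1209, 755, 440 and 148 LepR+ cells. What part the cell numbers had in that split was not tested.

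For Runx2 and Dlx5 the LepR+ share was lower in the irradiated libraries as well. LepR+ cells held 87.6%, 79.0%, 47.8% and 19.2% of Runx2 UMIs and 90.4%, 96.5%, 46.8% and 28.3% of Dlx5 UMIs. Osteolineage cells held 3.68%, 1.38%, 42.2% and 29.8% of Runx2 UMIs and 5.44%, 1.67%, 46.0% and 66.7% of Dlx5 UMIs. Neutrophils held 2.38%, 5.79%, 1.69% and 19.0% of Runx2 UMIs, in the last library about as much as LepR+ cells. Runx2 was also read in dendritic cells, a cluster led by Ly6d and Siglech, at 949.8, 955 and 1006 CPM in 6, 42 and 19 cells of the libraries that held them. That was above its level in the LepR+ cells of any library. In endothelial cells Runx2 reached at most 3.16 CPM.

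Pparg was highest in endothelial cells of every library, at 392, 284, 257 and 246 CPM, followed by LepR+ cells and then monocytes or macrophages at 56.2, 16.7, 38.2 and 26.7. Endothelial cells held 60.4%, 69.3%, 81.1% and 70.2% of its UMIs. With irradiation the endothelial level was lower in control cells while the LepR+ level was higher, with 392 against 63.0 CPM before and 257 against 164 after. In the non-irradiated control, LepR+ cells and macrophages could not be told apart within their intervals for Pparg, [58.4, 67.8] against [40.3, 76.2].

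Cebpa was highest in basophils or mast cells where these were present in number, at 400.0 CPM in the non-irradiated control, followed by LepR+ cells at 285. Basophils or mast cells of the other libraries had 468, 488 and 529.5 CPM in 26, 35 and 25 cells. In the other 3 libraries LepR+ cells had the highest level among classes of at least 50 cells. Basophils or mast cells of those 3 libraries had fewer than 50 cells and were left out of the ranking. Among classes of at least 50 cells, Cebpb was highest in monocytes or macrophages of 3 libraries, at 1760.2, 816 and 555 CPM. In the non-irradiated control it was highest in basophils or mast cells, at 1517. It was lower with irradiation in 5 of the 7 classes with enough UMIs in control and in 5 of 6 in Vegfc-deleted libraries, for example at 575, 447, 248 and 206 CPM in endothelial cells. Its level was thus lower in classes outside the stroma as well. Megakaryocytes were the exception in size, with a log2 ratio of 3.29 in control libraries. Zfp467 was as high in endothelial as in LepR+ cells within the intervals of all 4 libraries, with 33.5 [27.5, 40.6] against 28.2 [25.1, 31.5] CPM in the non-irradiated control.

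**Figure D4:**
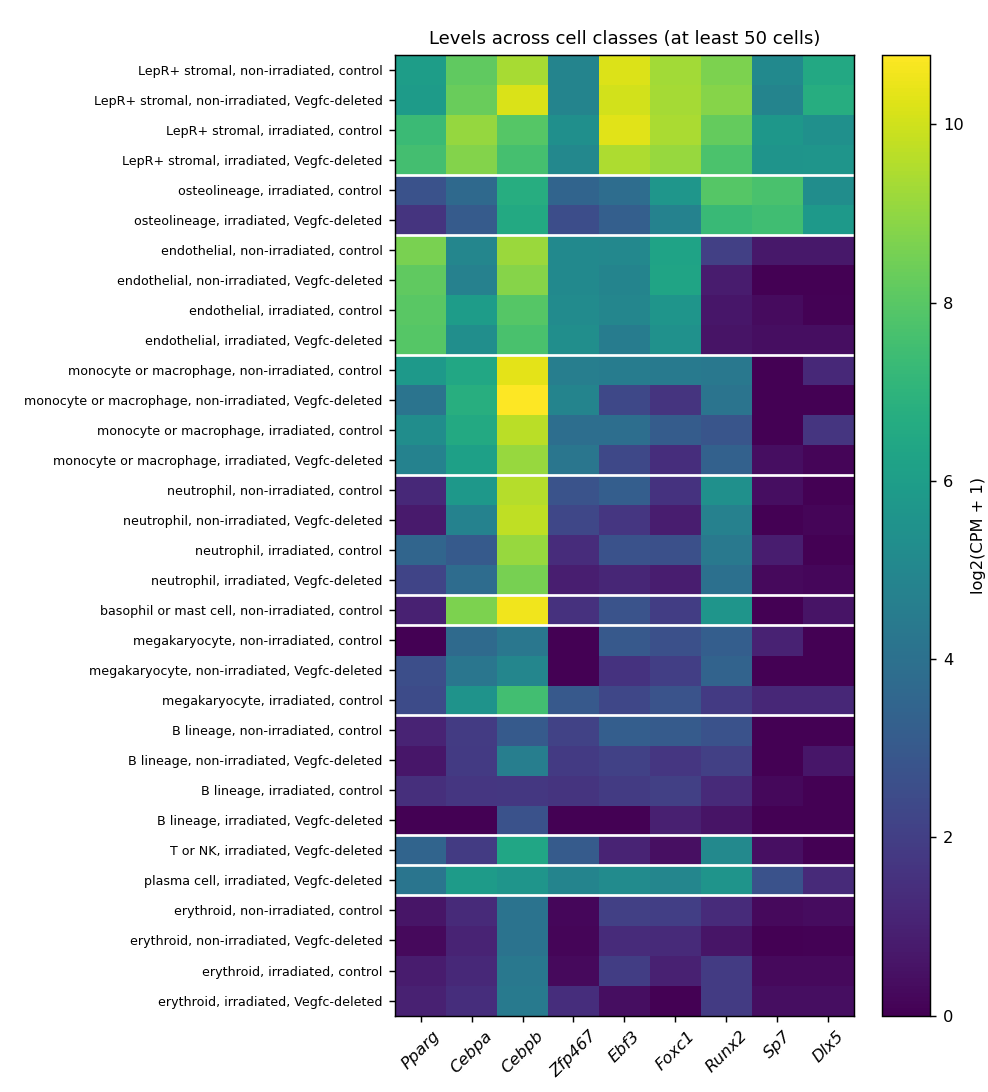
Level of the 9 factors (columns) in each cell class and library with at least 50 cells (rows), coloured by log2(CPM + 1). Ebf3 and Foxc1 are brightest in LepR+ stromal cells, Sp7 in the irradiated osteolineage cells (204 and 177 CPM), Pparg in endothelial cells (246 to 392 CPM) and Cebpb in monocytes or macrophages and basophils or mast cells.

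Genes with the most similar pattern to each member were ranked by Pearson's r of log2 levels over the 32 class and library points of at least 50 cells, among 7960 genes. These points share libraries and depth and the classes were built from such genes, so r is a description. For Ebf3 the nearest were Lepr (0.982), Fbln5 (0.977) and Fzd1 (0.962), and for Foxc1 they were Bmp4 (0.981), Fat4 (0.971) and Lama4 (0.967). Sp7 came closest to Twist1 (0.982), Bmp1 (0.98) and Kazald1 (0.978), and Dlx5 to the homeobox genes Hoxc10 (0.975) and Hoxc9 (0.972). Runx2 came closest to Spp1 (0.904), which encodes osteopontin, and Cebpb to Nfil3 (0.928), a bZIP factor. The nearest genes of Pparg were St6galnac2 (0.955) and Fblim1 (0.954), of Cebpa Il11ra1 (0.881) and of Zfp467 Nrp1 (0.93) and Vcam1 (0.927). Among the members themselves r was 0.955 for Ebf3 with Foxc1, 0.93 for Sp7 with Dlx5, 0.878 for Pparg with Zfp467 and 0.184 for Pparg with Runx2.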

How the data were processed

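The deposited values are whole, unscaled UMI counts for each feature in each barcode. They came from Cell Ranger on mm10, per the submitters' processing notes, which give version 2.1.1, and from software 3.1.0, per the file headers. The libraries held 7454, 7737, 5150 and 5134 barcodes. Kept barcodes had at least 500 genes and at most 10% mitochondrial UMIs. Doublets were scored per library with Scrublet, and the top 0.8% per 1000 barcodes were removed (444, 479, 212 and 211). Log-transformed, depth-scaled values of 2000 variable genes without the 9 members gave 40 principal components, a graph of 20 neighbours and 35 Leiden clusters (scanpy 1.11.5, leidenalg 0.10.2, resolution 1, seed 7), with no batch correction. Clusters were named from marker lists, and a cluster led by Ctsk, Mmp9 and Acp5 was left without a name after its genes were seen.

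UMIs were summed per class and library. A difference was counted where CPM differed by at least 1.5-fold and one of the libraries or classes had at least 30 UMIs, with 0.5 counts added to both where one was 0. No test was possible with 1 library per group. Alternatives were 2 filters on cells and doublets, resolution 2, members kept among variable genes, TMM (edgeR 4.0.16), thinning, equal weight per cell, other thresholds and, chosen after seeing the data, leaving out cells rich in granule or fat-droplet transcripts or the shallow LepR+ cluster. The ratio step was tested on simulated counts. The members and lists were chosen with earlier results of these data known. Named genes are the members, up to 4 genes of each list with the largest log2 ratio in both irradiation comparisons, the class markers, and the 3 genes most like a member.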

Additional observations from a re-analysis of the deposited data

Results flagged for a closer look

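For 6 of the 9 factors the log2 ratio of irradiated to non-irradiated LepR+ stromal cells differed between the genotypes by more than its approximate counting interval. The share of all genes that did so was not worked out, so the count does not show whether this is particular to these factors. The difference, Vegfc-deleted minus control, was 0.29 for Pparg, -0.48 for Cebpa, -1.17 for Cebpb, -0.64 for Ebf3, -0.31 for Foxc1 and -0.67 for Runx2. Without the cells rich in granule UMIs, left out after seeing the data, these were -0.22 for Pparg (interval -0.57 to 0.14, so the direction turned), -0.48 for Cebpa, -1.19 for Cebpb, -0.32 for Ebf3, -0.16 for Foxc1 and -0.41 for Runx2, and Sp7 was at 0.62 (0.1 to 1.14). With 1 library per group these differences were not tested against the spread between mice. The largest, that of Cebpb, is made up by the non-irradiated libraries, at 659 CPM in the control and 1163 in the Vegfc-deleted library, more than by the irradiated ones, at 245 and 192.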

How the results depend on the processing

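Each group had 1 library of pooled mice, so no replicate could be left out, and counting intervals do not include the spread between mice. No paired analysis was possible because each group holds 1 library. Of 620 ratios recomputed under the alternatives, 32 changed sign, of which 30 were within 1.5-fold in the main analysis, among them Pparg between irradiated LepR+ cells of the genotypes (0.18, and -0.3 without granule-rich or -0.12 without fat-droplet cells). The other 2 had been past 1.5-fold. These were Zfp467 between irradiated osteolineage cells of the genotypes (0.27 after thinning to 3000 UMIs) and Runx2 in the same comparison (0.07 without cells rich in granule UMIs, which leaves 11 cells in the Vegfc-deleted library). In LepR+ cells Pparg was higher and Cebpb and Dlx5 were lower with irradiation, past 1.5-fold, in both genotypes under all 10 alternative settings for cells, clusters, scaling and weights. At a fold of 2 the members counted as higher with irradiation were 1 in place of 3 in control and 1 in place of 2 in Vegfc-deleted cells, those between genotypes 0 in place of 1 higher (non-irradiated) and 0 in place of 1 lower (irradiated), and those lower in osteolineage cells of the Vegfc-deleted library 1 in place of 5. Under TMM 1 in place of 2 members was higher with irradiation in Vegfc-deleted cells (Sp7 was lost), and 2 in place of 1 were higher in osteolineage than in LepR+ cells of each irradiated library (Dlx5 was added). Among irradiated LepR+ cells 0 in place of 1 member (Ebf3) was lower in the Vegfc-deleted genotype after thinning, with equal weight per cell, or without the granule-rich cells, 1 in place of 0 was higher after thinning (Dlx5), and 2 in place of 1 were lower without fat-droplet cells (Cebpb was added). Among irradiated osteolineage cells Dlx5 was added as 1 member higher in the Vegfc-deleted library at resolution 2 or without granule-rich cells, and resolution 2 left 1 in place of 5 lower (Foxc1), with Ebf3 at -0.24 and Runx2 at -0.42 below that size, and Cebpa (-0.63) and Zfp467 (-0.64) past it but under 30 UMIs in both libraries. Apart from TMM, the share of all genes was not worked out under these alternatives. The changed counts thus do not show whether the members moved more than other genes. The causes of these changes were not tested. Zfp467, Sp7 and Dlx5, with 44, 66 and 67 UMIs in irradiated Vegfc-deleted LepR+ cells, are limited by depth.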

Other observations

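The cluster named plasma cells in the irradiated Vegfc-deleted library (63 cells, median 1776.0 UMIs) also held UMIs of stromal factors, with Cebpa at 59.6, Runx2 at 46.8, Ebf3 at 35.5 and Foxc1 at 29.8 CPM. The same 4 factors stood at 434, 211, 710.1 and 559 CPM in the LepR+ stromal cells of that library.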
